A study of Mus musculus with 6 samples.

Results

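The transcripts described here encode ribosome biogenesis and nucleolar factors, and they were followed by RNA immunoprecipitation and sequencing (RIP-seq) of FLAG-tagged LIN28B in cultured B cell precursors of the mouse. They were chosen by name, as the rows of the deposited table whose gene symbol was 1 of 40 fixed symbols, out of 54752 genes in all. All 40 were found. The measured quantity is the FPKM value, a read density per length of transcript and per library, in the lysate before precipitation (input) and in the anti-FLAG precipitate (IP) of the same culture. The labels give polyA RNA for all libraries, whereas the study's text speaks of total RNA sequencing for the inputs, a difference that would bear on every ratio and was not resolved. There were 6 libraries, an input and an IP from each of 2 tet-LIN28B mice and 1 littermate control. tet-LIN28B mice, the transgenic ones, carried, on a single allele, a doxycycline-inducible cDNA of Flag-tagged human LIN28B at the Col1a locus, together with the Rosa26 rtTA-m2 transactivator. The control was heterozygous for Rosa26 rtTA-m2 and lacked the transgene, so that its anti-FLAG IP measures RNA recovered without the tagged protein. All cultures were grown from whole adult bone marrow for 5 days in IL-7 (20 ng/mL) plus doxycycline, which the labels give as 0.1 mg/mL and the study's methods in µg/mL. Control cells therefore received the drug too, and the protein was the human one, driven by a transgene.

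Ribosomes are assembled in the nucleolus, where RNA polymerase I transcribes the precursor of the ribosomal RNAs. Small nucleolar ribonucleoproteins (snoRNPs) modify this precursor, the box C/D class by methylation of the ribose and the box H/ACA class by pseudouridylation, while assembly factors cut and fold it into the small (40S) and the large (60S) subunit. LIN28B is an RNA-binding protein of fetal and neonatal blood cells that recognises GGAG-containing stretches of RNA through its zinc knuckles.

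Among the 38 transcripts that could be tested, 13 had more signal in the tet-LIN28B IPs than in their inputs (called higher, 34.2% against 17.2% of all genes tested) and 7 had less (called lower, 18.4% against 37.8%). Wdr43, Bysl, Naf1 and Fbl, factors of the small subunit and of snoRNPs, led the higher ones with average ratios of 2.56 to 3.02. For Bysl the control ratio was high too, at 2.04. Nop10, a core protein of H/ACA snoRNPs, Bop1, a large subunit factor, and Polr1e, a polymerase I subunit, were the lowest with 0.209 to 0.297. Against the IP/input ratio of the control, these 3 were called lower, 7.89% against 10.6% of all genes, and none was called higher, against 1.77%. Both tet-LIN28B mice stood above the control for 19 transcripts, 50% against 26.7% of all genes. Input levels did not differ detectably between the genotypes.

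Stretches of 30 bases with the most GGAG in the main transcript are shown for transcripts on which the results below turn. Capitals mark GGAG, positions are those of GRCm38, and the bases run 5′ to 3′ along the transcript. Of the higher transcripts, Ncl, Fbl, Polr1c and Bysl are shown.
Ncl, chr1:86350871-86350900, minus strand, exon 13 of 14, coding: aggtGGAGgcagaGGAGgtttcGGAGgcag
Fbl, chr7:28174563-28174592, plus strand, exon 2 of 9, coding: agaGGAGgtggaagaGGAGgccgaGGAGgc
Polr1c, chr17:46244569-46244598, minus strand, exon 7 of 9, coding: gtggaaGGAGaagcggctgaGGAGctgagc
Bysl, chr17:47606942-47606971, minus strand, exon 2 of 7, coding: aGGAGgatgaGGAGtggcctaccctGGAGa
The 3 transcripts called lower than the control hold the following stretches.
Nop10, chr2:112261960-112261989, plus strand, exon 1 of 2, in the UTR or at its boundary: aagcggcgcactcGGAGtaaacgcggctgg
Bop1, chr15:76474750-76474779, minus strand, exon 2 of 16, coding: gggcagaGGAGacctctgaGGAGctggcac
Polr1e, chr4:45018702-45018731, plus strand, exon 1 of 12, coding: gaccaggctGGAGacacGGAGacagaggcg
Ubtf is shown because its stretch holds the most GGAG of those printed and its ratio was raised in the control too.
Ubtf, chr11:102306948-102306977, minus strand, exon 20 of 21, coding: aGGAGgaGGAGgacgacgaGGAGgaGGAGg
Transcripts on both sides of the comparison thus held GGAG. The stretches printed do not stand for their groups in number of GGAG. Wdr43 and Naf1, also called higher in the IP, held 2 in theirs, and Nob1, called lower, held 3. GGAG per kilobase over the whole group is given further on.

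The libraries were first compared with one another. The deposited FPKM summed to between 1144870 and 1384940 per library, and since FPKM carry no read counts, the sequencing depth is unknown. Across the 38 transcripts, the log2 IP/input ratios of both tet-LIN28B mice correlated at r = 0.934, and at 0.830 over the 8528 genes tested, as a description across genes that are not independent. All 10 markers of B cell progenitors were above 0 in every input, and their FPKM summed to 6964 and 8198 in tet-LIN28B and to 8144 in control cells. In the matching IPs they summed to 9453, 9481 and 7075. The 6 myeloid markers, none of them at 0, summed to 7424, 4643 and 6392 FPKM in the same inputs and to 2525, 1669 and 2772 in the IPs. Most of this was S100a8 (2989, 1848 and 2667 FPKM in the inputs) and S100a9 (3770.2, 2355 and 3335). The 5 T cell markers summed to 53.8 FPKM in the input of the first transgenic mouse, against 15.6 in the second and 14.3 in the control. These are mixed cultures, then, in which fewer cells of a type and less RNA per cell cannot be told apart, and the part of myeloid and T cell RNA in the results below was not tested.

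Taken as levels per length in the inputs, the 40 transcripts spanned from a mean of 3.69 FPKM for Nle1, a large subunit factor, to 1437 FPKM for Npm1. Of them 12 had a mean input of 100 FPKM or more and 6 were under 10. All 40 together made up 0.394% and 0.425% of the FPKM in the tet-LIN28B inputs and 0.408% in the control input. Their share was 0.651% and 0.568% in the tet-LIN28B IPs and 0.491% in the control IP. The share was higher in each IP than in its input, in the control as well. Without Npm1 and Ncl, left out after their values were seen, it was 0.260% and 0.284% in the tet-LIN28B inputs and 0.296% and 0.328% in their IPs, and 0.278% and 0.328% in the control.

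**Figure D1:**
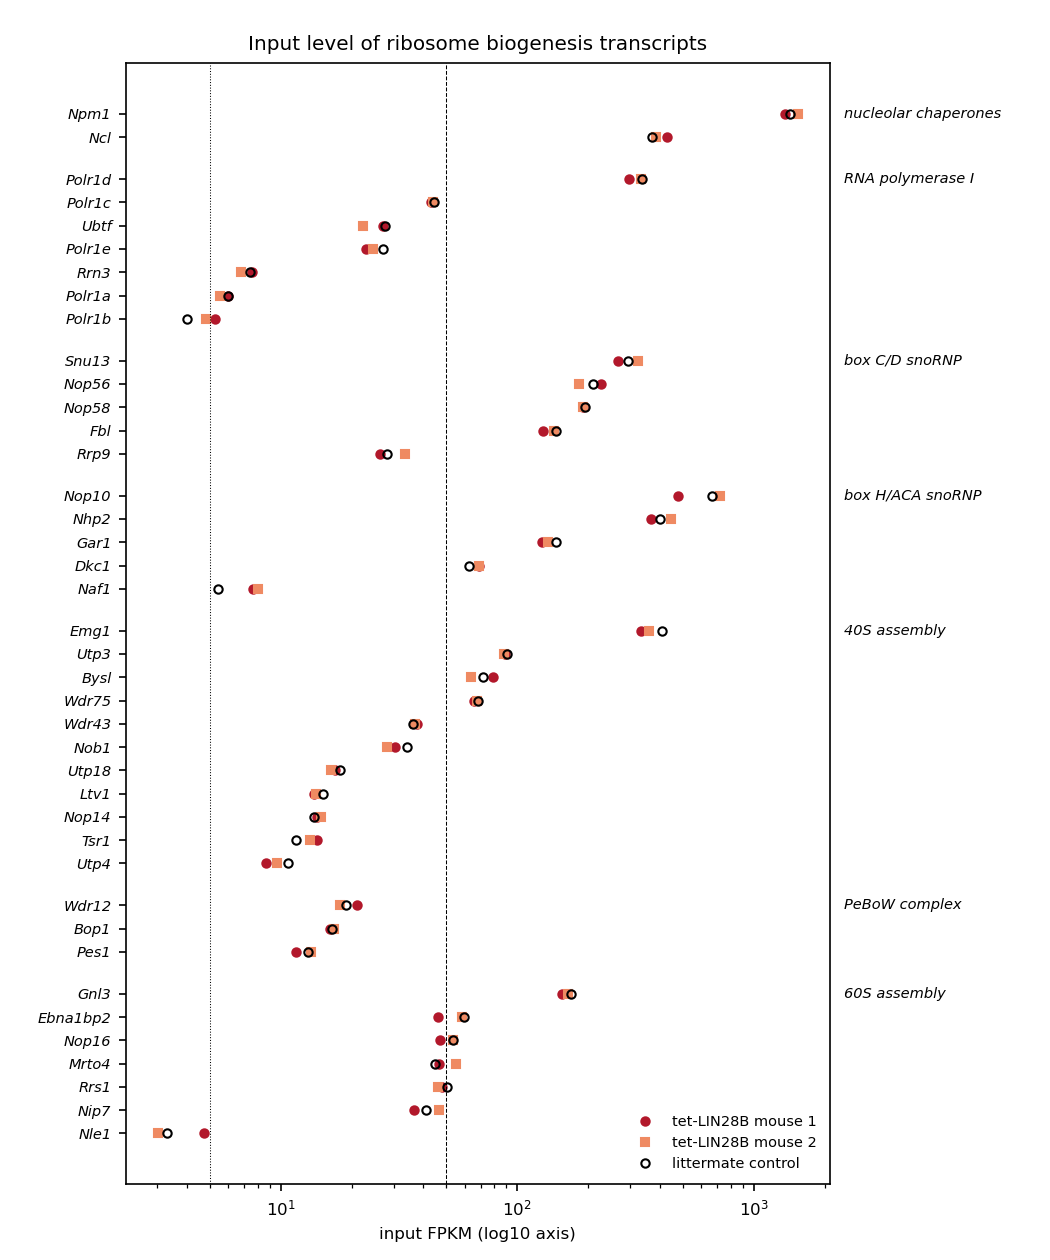
Input level of each transcript in FPKM (log10 axis), by class, with 1 point per mouse: tet-LIN28B mouse 1 (filled circle), tet-LIN28B mouse 2 (square) and the littermate control (open circle). The thin line marks the 5 FPKM mean that a transcript needed to be tested and the dashed line the 50 FPKM of the filter in the study's methods; Npm1 lies highest, and the 3 points of most transcripts fall close together.

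For each mouse the ratio of IP to input was formed, and log2((IP + 1)/(input + 1)) was fitted with limma over all 8528 genes whose inputs averaged at least 5 FPKM. Nle1 and Polr1b, the second largest subunit of RNA polymerase I, had mean inputs of 3.69 and 4.70 FPKM and were not tested. The median log2 IP/input of the 38 was 0.15 in the tet-LIN28B mice and that of all genes was -0.32. In the control both medians were near 0, at 0.03 and 0.01. An average IP/input ratio above 2 was seen for 7 transcripts (Npm1, Ncl, Fbl, Naf1, Polr1c, Wdr43 and Bysl), where 9.72% of all genes passed. A ratio below 0.5 was seen for 6 (Nop10, Polr1e, Bop1, Nip7, Nob1 and Utp4), where 30.1% of all genes did.

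**Figure D2:**
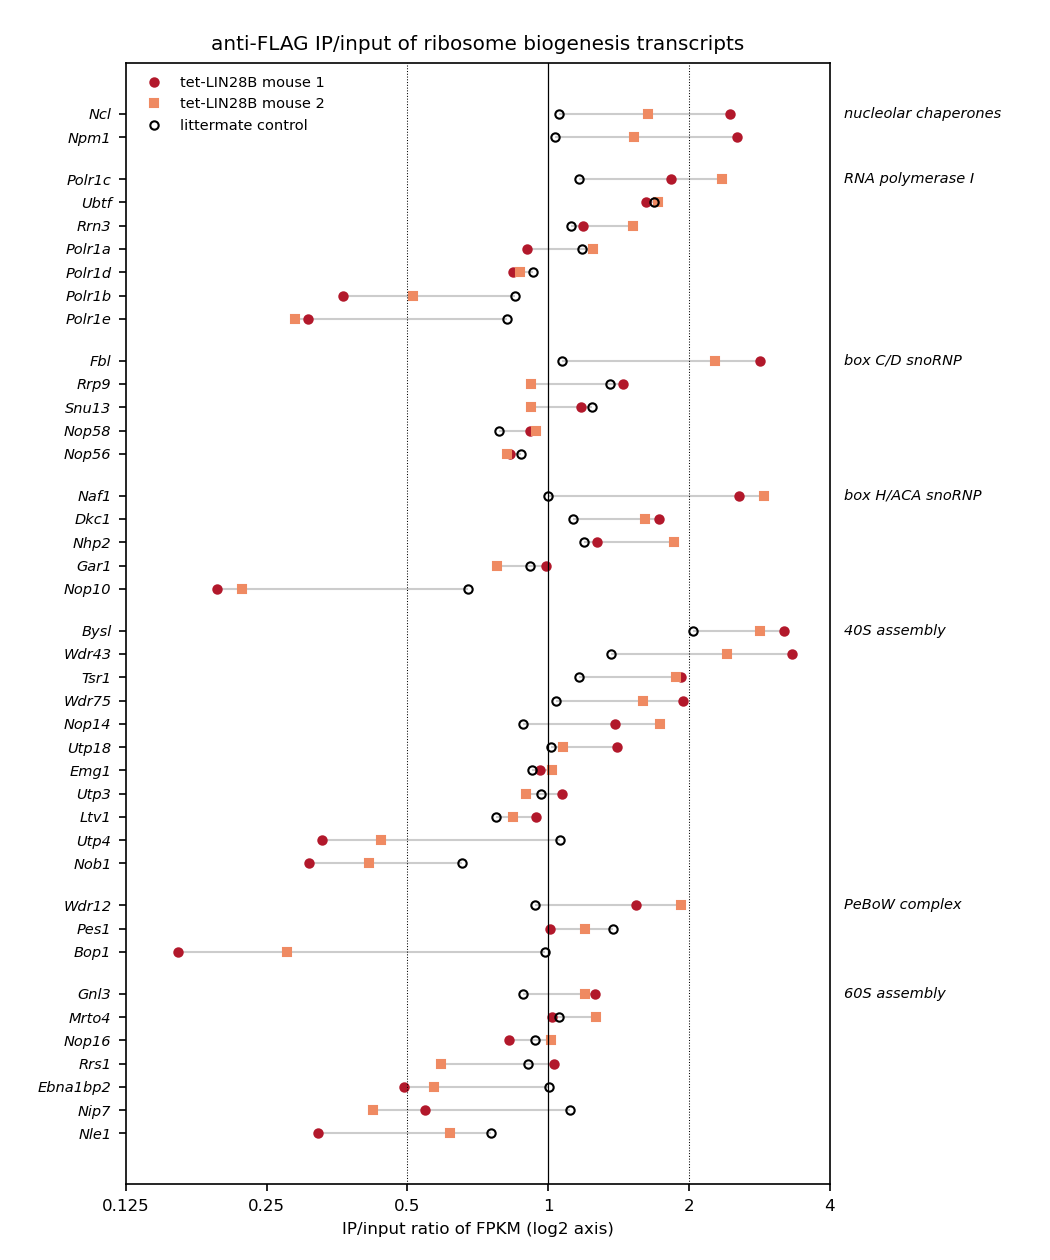
Anti-FLAG IP/input ratio of FPKM (log2 axis) for all 40 transcripts, by class, with 1 point per mouse: tet-LIN28B mouse 1 (filled circle), tet-LIN28B mouse 2 (square) and the control (open circle), joined by a line. Vertical lines mark ratios of 0.5, 1 and 2; the control points lie between 0.653 and 2.04, while the tet-LIN28B points reach from 0.161 for Bop1 to 3.32 for Wdr43.

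Both nucleolar chaperones were called higher in the IP, as were 17.2% of all genes. Nucleophosmin, encoded by Npm1, is an abundant nucleolar protein that carries histones and ribosomal proteins. Npm1 measured 1355 FPKM in the input and 3437 in the IP of the first transgenic mouse, 1532 and 2334 in the second, and 1424 and 1470.0 in the control. Both tet-LIN28B IPs exceeded their inputs, and the control IP was close to its input. The IP/input ratios were 2.54, 1.52 and 1.03, with a tet-LIN28B average of 2.03 ± 0.717 (SD, n = 2), and the log2 IP/input was 0.97 (SE 0.24, adjusted p = 0.0254), from 1.34 in the first mouse and 0.61 in the second. Ncl encodes nucleolin, which binds the ribosomal RNA precursor. Its values were 428 FPKM in the input and 1048 in the IP of the first transgenic mouse, 386 and 632 in the second, and 372 and 392 in the control. The average ratio was 2.04 ± 0.574 against 1.05 in the control, with a log2 IP/input of 1.00 (SE 0.22, adjusted p = 0.0176). For both genes the first mouse stood higher than the second, and both mice above the control, by a log2 difference of 0.93 (SE 0.42, adjusted p = 0.193) for Npm1 and 0.92 (SE 0.38, adjusted p = 0.162) for Ncl. Neither difference from the control passed the threshold of 0.05. Of the 50-base stretches of the Npm1 transcript, 40.9% also occur in 10 other genes, and of those of the Ncl transcript, 0.859% occur in others. Summed over the genes that share them, the log2 IP/input was 0.97 for Npm1, which made up 98.9% of the summed input. For Ncl it was 0.32, and since Ncl made up 12.1% of its sum, that value is set largely by other genes.

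The transcripts of RNA polymerase I divided. Polr1c encodes a subunit shared with RNA polymerase III. It was measured at 43.3 FPKM in the input and 79.3 in the IP of the first transgenic mouse, 43.9 and 104 in the second, and 44.4 and 51.6 in the control. The average ratio was 2.10 ± 0.370 (SD, n = 2) against 1.16, and the log2 IP/input was 1.04 (SE 0.19, adjusted p = 0.0098). Polr1e, which encodes a subunit that acts with the initiation machinery, went the other way. Its levels were 23.0 FPKM in the input and 7.04 in the IP of the first transgenic mouse, 24.6 and 7.07 in the second, and 27.1 and 22.2 in the control. Both tet-LIN28B IPs were below every other library of this gene. The ratios of 0.306 and 0.287, against 0.817, gave a log2 IP/input of -1.62 (SE 0.16, adjusted p = 0.0025). Ubtf encodes UBF, the factor that keeps ribosomal RNA genes open, and it had a raised ratio in all 3 mice, 1.62 and 1.72 with the transgene and 1.68 without it. It was called higher in the IP (adjusted p = 0.0201), yet its log2 difference from the control was -0.02 (SE 0.29, adjusted p = 0.971). Polr1a, the catalytic subunit, Polr1d, a small shared subunit, and Rrn3, the factor that recruits the polymerase, were not called, with average ratios of 0.856 to 1.35. Polr1b, below the level for testing, had ratios of 0.364 and 0.513 against 0.848 in the control.

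Of the 5 box C/D snoRNP transcripts, only Fbl was called, which is 20% higher against 17.2% of all genes. Fbl encodes fibrillarin, the methyltransferase of this class. It stood at 129 FPKM in the input and 366 in the IP of the first transgenic mouse, 143 and 325 in the second, and 146 and 156 in the control. The 2 tet-LIN28B IPs were above the other 4 libraries. The average ratio was 2.56 ± 0.402 (SD, n = 2) against 1.07, the log2 IP/input was 1.34 (SE 0.19, adjusted p = 0.0051), and the log2 difference from the control was 1.24 (SE 0.32, adjusted p = 0.0702). Nop56, a scaffold protein of the same particle, was lowest of the class, with 226 FPKM in the input and 187 in the IP of the first transgenic mouse, 182 and 149 in the second, and 209 and 183 in the control. Its ratios of 0.827, 0.819 and 0.874 lay close together, and the log2 IP/input was -0.28 (SE 0.17, adjusted p = 0.225). The other scaffold gene, Nop58, the RNA-binding core gene Snu13, and Rrp9, whose protein is particular to the U3 particle, had average ratios of 0.927 to 1.18. The average ratios of this class thus ran from 0.823 to 2.56, and differences between its transcripts were not tested. In the reference transcripts, 70.4% of the 50-base stretches of Fbl also occurred in 3 other genes, so its reads could have been divided among them and its values are uncertain to that extent. Summed over these genes, the log2 IP/input was 0.92, and Fbl made up 11.7% of the summed input.

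The box H/ACA class held members at both ends. Naf1 encodes an assembly factor that precedes Gar1 in the particle. Naf1 was measured at 7.60 FPKM in the input and 19.5 in the IP of the first transgenic mouse, 8.01 and 23.2 in the second, and 5.44 and 5.45 in the control. The average ratio of 2.73 ± 0.230 (SD, n = 2) compared with 1.00 in the control, with a log2 IP/input of 1.34 (SE 0.22, adjusted p = 0.0075) and a log2 difference from the control of 1.34 (SE 0.37, adjusted p = 0.0790). Nop10 encodes a small core protein of the particle. Nop10 was measured at 479 FPKM in the input and 93.8 in the IP of the first transgenic mouse, 720 and 159 in the second, and 667 and 449 in the control. The control IP was also below its input, with a ratio of 0.673, but the tet-LIN28B ratios of 0.196 and 0.222 were lower. The log2 IP/input was -2.25 (SE 0.18, adjusted p = 0.0017). Dkc1, the gene of the pseudouridine synthase dyskerin, was higher in the IP, with ratios of 1.73 and 1.61 against 1.13 (adjusted p = 0.0205). Nhp2 and Gar1, core protein genes, were not called, with average ratios of 1.56 and 0.883.

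The 11 transcripts of small subunit factors were called higher in 5 cases (45.5% against 17.2% of all genes) and lower in 2 (18.2% against 37.8%). Bysl encodes bystin, needed for late steps of small subunit maturation. It had the highest average ratio of the group, with 78.6 FPKM in the input and 251 in the IP of the first transgenic mouse, 63.8 and 181 in the second, and 71.8 and 147 in the control. The ratios were 3.20, 2.84 and 2.04, and the control was the single ratio above 2 among the 38 in that mouse (4.79% of all genes). No control ratio was below 0.5 (3.39% of all genes). The log2 IP/input was 1.58 (SE 0.17, adjusted p = 0.0030) and the log2 difference from the control 0.56 (SE 0.30, adjusted p = 0.251). Exons of Ccnd3, which encodes cyclin D3, cover 9.37% of the Bysl exons, and Ccnd3 was the more abundant, at 468 to 617 FPKM in the inputs. The library kit does not mark strand, so reads from that overlap cannot be told apart. Wdr43, Wdr75, Nop14 and Tsr1 were the other higher ones, with average ratios of 1.57 to 2.87 and control ratios of 0.886 to 1.36. The proteins of the first 3 belong to the small subunit processome, and Tsr1 acts later. The call for Nop14 (adjusted p = 0.0442) was lost in 5 alternatives, with adjusted p of 0.0529 to 0.0692. Srr exons cover 34.2% of those of Tsr1, and Srr was measured at 4.36 to 5.75 FPKM in the inputs.

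Nob1 was the lowest of the class. It encodes the endonuclease that makes the end of the mature small subunit RNA. Nob1 stood at 30.5 FPKM in the input and 9.41 in the IP of the first transgenic mouse, 28.0 and 11.6 in the second, and 34.2 and 22.3 in the control. Its ratios of 0.308 and 0.413 lay below that of the control, 0.653, itself the lowest control ratio of the group. The log2 IP/input was -1.40 (SE 0.19, adjusted p = 0.0047), and the log2 difference from the control was -0.81 (SE 0.32, adjusted p = 0.155). Utp4, a processome gene, was the other lower one, with ratios of 0.328 and 0.439 against 1.06 (adjusted p = 0.0085). Utp3, Utp18 and Ltv1, assembly factor genes, and Emg1, the gene of a pseudouridine methyltransferase, were not called, with average ratios of 0.893 to 1.24.

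The PeBoW complex, a trimer of PES1, BOP1 and WDR12, acts in large subunit maturation. Its 3 transcripts had 3 different outcomes. Bop1 measured 16.2 FPKM in the input and 2.61 in the IP of the first transgenic mouse, 16.8 and 4.66 in the second, and 16.4 and 16.2 in the control. The inputs were alike, and only the tet-LIN28B IPs were low. The ratios were 0.161, 0.277 and 0.983, and the log2 IP/input was -1.95 (SE 0.22, adjusted p = 0.0030). Wdr12 was highest, with 21.0 FPKM in the input and 32.3 in the IP of the first transgenic mouse, 17.8 and 34.3 in the second, and 18.9 and 17.7 in the control. The average ratio was 1.73 ± 0.274 (SD, n = 2) against 0.936, and the log2 IP/input was 0.76 (SE 0.18, adjusted p = 0.0218). Pes1 was not called, with ratios of 1.01 and 1.20 against 1.38. Of the 50-base stretches of the Wdr12 transcript, 7.0% also occur in other genes, and of those of the Pes1 transcript, 22.0%. Some reads of both could therefore have been assigned among such genes.

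None of the 6 tested transcripts of the other large subunit factors was called higher, where 17.2% of all genes were. Lower calls numbered 2, which is 33.3% against 37.8% of all genes. Gnl3, the gene of the nucleolar GTPase nucleostemin, had the highest average ratio. It was measured at 155 FPKM in the input and 194 in the IP of the first transgenic mouse, 163 and 196 in the second, and 168 and 149 in the control. The ratios were 1.26, 1.20 and 0.882, and the log2 IP/input was 0.29 (SE 0.17, adjusted p = 0.205). Nip7, an assembly factor gene, was lowest among those tested, with 36.7 FPKM in the input and 20.0 in the IP of the first transgenic mouse, 46.6 and 19.6 in the second, and 41.2 and 45.9 in the control. The tet-LIN28B IPs were the lowest of the 6 libraries. Its log2 IP/input was -1.02 (SE 0.19, adjusted p = 0.0101) and its log2 difference from the control -1.18 (SE 0.32, adjusted p = 0.0756). Ebna1bp2 was also lower, at ratios of 0.491 and 0.570 against 1.00 (adjusted p = 0.0122). Rrs1, Nop16 and Mrto4, further assembly factor genes, were not called, with average ratios of 0.808 to 1.14. Nle1, not tested, stood at 4.75 FPKM in the input and 1.53 in the IP of the first transgenic mouse, 3.02 and 1.86 in the second, and 3.29 and 2.48 in the control, so that its ratios were 0.322, 0.616 and 0.754.

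To ask how far these ratios exceeded the background of the IP, the tet-LIN28B mice were compared with the control in the same fit. No transcript of the group was called higher (1.77% of all genes were) and 3 were called lower, which is 7.89% of the 38 against 10.6% of all genes. At an unadjusted p under 0.05 from limma, 4 were higher and 6 lower, where 7.40% and 27.8% of all genes passed. Bop1 had a log2 difference of -1.93 (SE 0.37, adjusted p = 0.0436), Nop10 of -1.68 (SE 0.31, adjusted p = 0.0415) and Polr1e of -1.34 (SE 0.29, adjusted p = 0.0496). In all 3 both tet-LIN28B ratios lay below the control. Across the alternatives the adjusted p was 0.0209 to 0.0893 for Bop1, 9.61e-07 to 0.146 for Nop10 and 0.0292 to 0.0862 for Polr1e, so that each of these calls was lost in some, and the share of lower calls is close to that of all genes. Under the filter in the study's methods, which asks for 50 FPKM or more in all 4 tet-LIN28B libraries, 16 transcripts were left and Bop1 and Polr1e were not among them. There Fbl (adjusted p = 0.000202), Ncl (0.00759), Npm1 (0.0224) and Wdr75 (0.0301) were called higher than the control and Nop10 was called lower (9.61e-07). In the other alternatives the adjusted p of the 4 higher ones was 0.0424 to 0.107 for Fbl, 0.105 to 0.277 for Ncl, 0.129 to 0.258 for Npm1 and 0.0893 to 0.268 for Wdr75. That filter asks for a high IP, so it keeps transcripts for being high there.

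**Figure D3:**
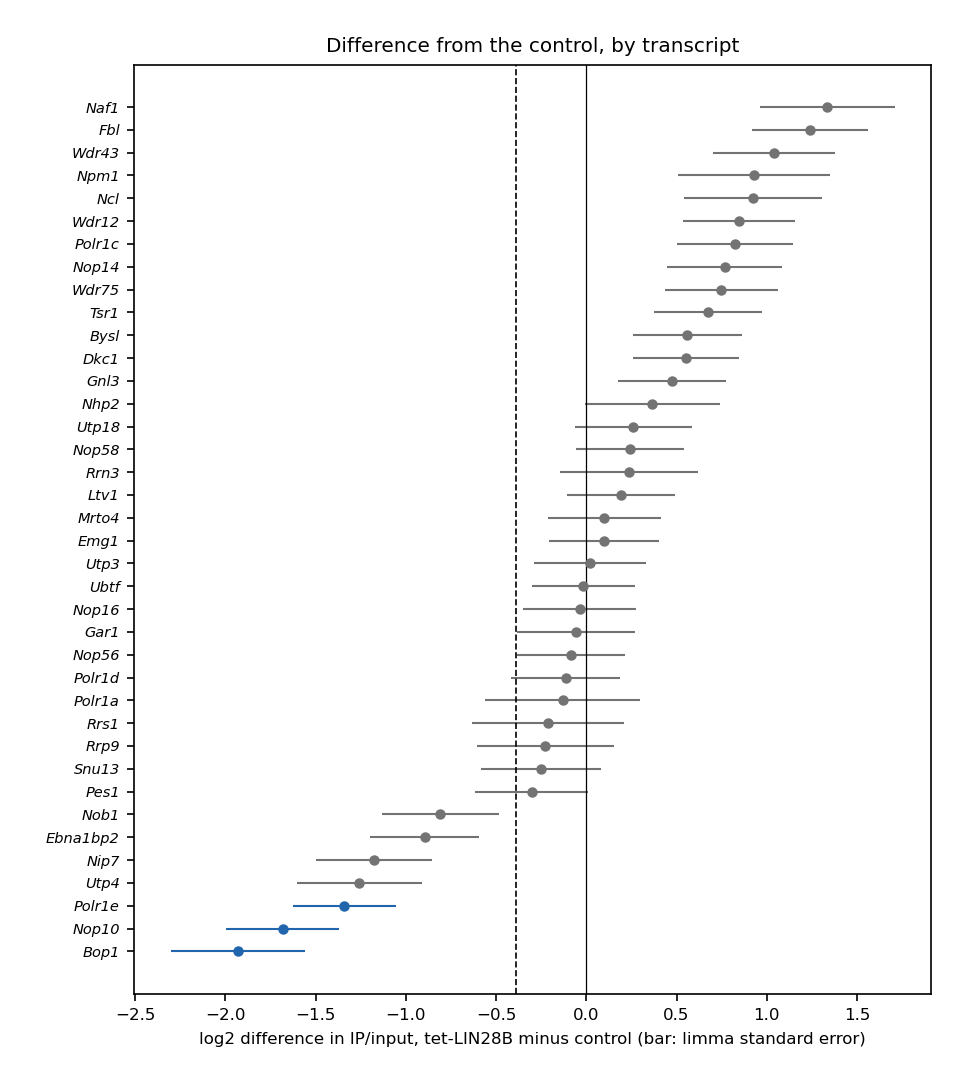
Log2 difference in IP/input between the tet-LIN28B mice (n = 2) and the control (n = 1) for the 38 transcripts tested, with bars of 1 limma standard error; the dashed line is the median of all genes tested, -0.39. The transcripts called lower, Bop1, Nop10 and Polr1e, are in blue at the bottom, and Naf1 and Fbl are at the top.

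Without a test, both tet-LIN28B ratios were above the control for 19 transcripts (50% against 26.7% of all genes), both were below for 11 (28.9% against 60.5%), and the control lay between them for 8. Of the 13 transcripts called higher in the IP, 12 had both tet-LIN28B ratios above the control, Ubtf being the exception. All 7 called lower had both below it. These calls were made on the same tet-LIN28B ratios, so both counts follow largely from the calls and add no separate evidence. The matching shares among all called genes are not given. The median log2 difference from the control was 0.10 for the 38 and -0.39 for all genes tested, and with each library scaled to the same sum it was -0.066 and -0.54. Its sign therefore depended on the scaling. Centring each mouse on its median gene moved the share of higher calls among all calls against the control from 14.3% to 32.4% over all genes, and called Fbl and Naf1 higher and, of the 3 lower ones, Bop1 alone. With 1 control its spread was taken to be that of the tet-LIN28B mice, and the smallest p of an exact permutation of 2 mice against 1 is 0.333. In the control, IP against input gave no call among the 38 by limma (10 among all 8528 genes tested). At an unadjusted p under 0.05 from limma 2 of the 38 passed, but no share over all genes is given to set beside them.

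**Figure D4:**
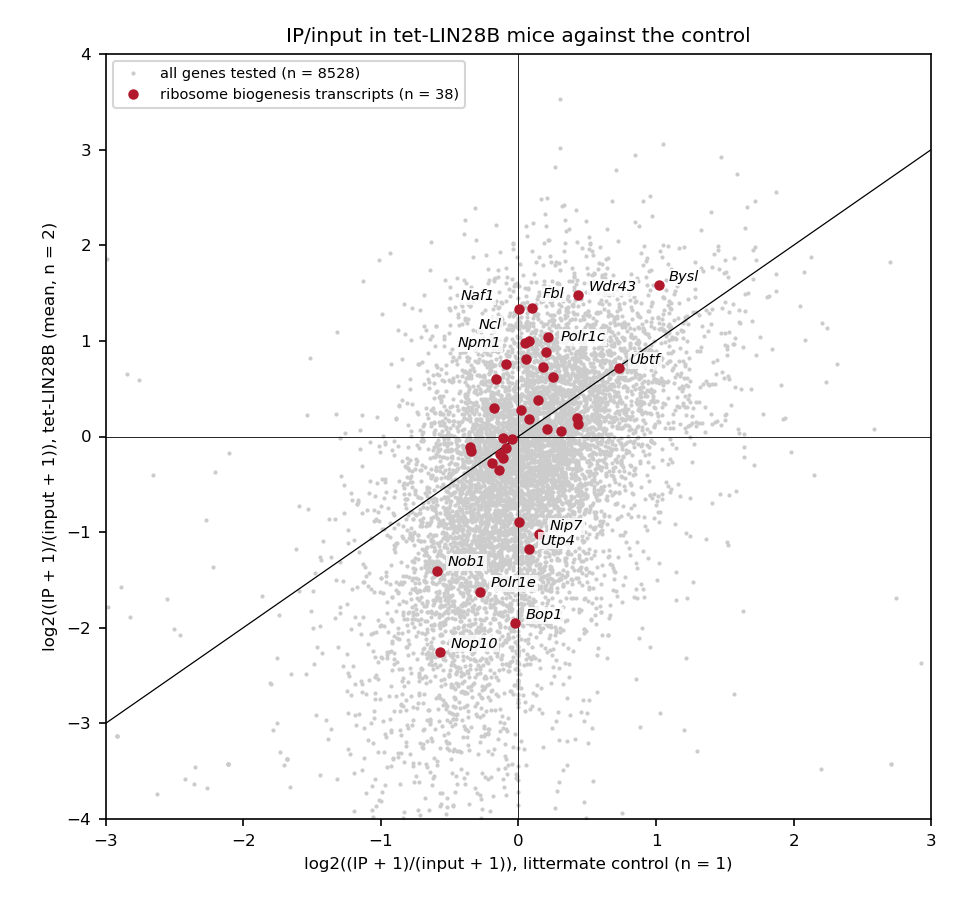
Mean log2((IP + 1)/(input + 1)) of the 2 tet-LIN28B mice (vertical) against the same value in the control (horizontal), for the 38 transcripts (red) and all 8528 genes tested (grey; 157 genes lie outside the axes), with the line of equal values. Bysl and Ubtf are raised on both axes, Naf1, Fbl, Npm1 and Ncl only on the vertical one, and Nop10, Bop1 and Polr1e lie below the line.

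The level of these transcripts in the cells was compared through the inputs. By limma, none of the 38 differed between tet-LIN28B and control inputs, neither after adjustment nor at an unadjusted p under 0.05, where 6.09% of all genes passed unadjusted and 8 genes (0.0938%) were called higher. The log2 differences ran from -0.24 to 0.45, with standard errors of 0.13 to 0.31. Naf1 had the 0.45, from 7.60 and 8.01 FPKM against 5.44 (adjusted p = 0.810).

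A further 112 genes of ribosome biogenesis, listed by role, were set beside the group, and 98 of them were tested. In the IP 23 were higher (23.5% against 17.2% of all genes) and 24 lower (24.5% against 37.8%), with a median log2 IP/input of 0.03. Against the control 1 was higher and 3 were lower. Utp6, a processome gene, was the higher one, with 16.6 FPKM in the input and 68.0 in the IP of the first transgenic mouse, 12.9 and 68.2 in the second, and 14.3 and 18.5 in the control. Its log2 difference was 1.80 (SE 0.32, adjusted p = 0.0402). Tbl3, also of the processome, differed by -2.56 (SE 0.51, adjusted p = 0.0455), Fcf1, the gene of a nuclease of that particle, by -2.14 (SE 0.33, adjusted p = 0.0345), and Lsg1, the gene of a GTPase of late large subunit maturation, by -1.80 (SE 0.29, adjusted p = 0.0371). Processome genes were among the calls in both directions, though calls against the control were no more frequent here than among all genes.

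Features of the transcripts that the choice of genes did not use were then examined. The main transcripts had a median length of 2264 bases, against 2627 for 7478 tested genes with a coding model. GGAG occurred in all 38 and in 99.75% of those genes, at a median of 7.53 and 6.92 per kilobase. Gar1 had the most, 21.2 per kilobase, and Naf1 the fewest, 2.68, while Nop10 had 2.71 and Fbl 15.9. The median was 7.38 per kilobase for transcripts higher in the IP, 7.17 for the lower ones and 8.65 for those with no call. Across the 38, the log2 IP/input correlated at r = 0.02 with GGAG per kilobase and at r = 0.23 with log2 transcript length, and the same values across 7478 genes were 0.03 and 0.38. In the control the correlation with length was 0.31 for the 38 and 0.44 for all, so that longer transcripts had higher ratios there too. These correlations are over genes that share the same libraries.

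Between the ends of 7 members (Ncl, Nop56, Nop58, Dkc1, Gnl3, Wdr43 and Tsr1), on the same strand, lie 21 annotated snoRNA genes. Of these hosts 4 were higher in the IP and none lower, where 17.2% and 37.8% of all genes were. With 7 hosts this is a description. No value here is that of a snoRNA.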

How the data were processed

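RNA of 6 libraries (input and anti-FLAG IP for each of 3 mice), polyA RNA per the labels, was amplified and sequenced by the authors. Per the labels and the study's methods, reads were aligned to mm10 with STAR 2.7.1 and quantified with RSEM 1.28; which annotation release they used is not stated in the paper or labels. The deposited values are FPKM rounded to 2 decimals, so read counts and depth are unknown, which leaves counting error unmeasured. Groups were taken from titles and column names. A line of each sample's description names the opposite fraction, and the titles were followed: the column names and the FPKM sums per fraction in the study's methods both match the titles. None of 15 library pairs was identical.

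Genes with a mean of at least 5 FPKM over the 3 inputs were fitted with limma 3.58.1 (R 4.3.3) on log2((IP + 1)/(input + 1)) per mouse, with genotype as factor, a trend on mean input, Benjamini-Hochberg adjustment over all 8528 genes and a two-sided threshold of 0.05. A fold change on this scale understates the change of low genes. Inputs were fitted as log2(FPKM + 1). A single residual degree of freedom was left per gene, so standard errors and p-values lean on a variance that limma shares across genes of like input. They rest on these samples only and do not measure the spread between further mice. Input and IP come from the same mouse, so the ratio is paired (the difference of one tet-LIN28B mouse from the other had a correlation of 0.13, over genes, between inputs and IPs). The scripts were checked on simulated data.

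The 40 members, the list of 112 further factors, the marker lists and the rule for named genes were chosen with earlier results of these data known. By that rule, values in every library were given for members called against the control, the highest and lowest of each class, Npm1 and Ncl, and the 3 largest rises and falls called among the further factors. Nip7 (lowest tested of its class), Utp4, Dkc1, Ubtf and other members printed with ratios alone fall outside it and were named as members. Ccnd3 and Srr were named for exon overlap. Gene models, lengths and 50-base stretches (Python 3.11.15) are those of GENCODE M21, GRCm38. Alternatives covered pseudocounts, filters, scaling, centring, the prior variance, the replicate block, each tet-LIN28B mouse left out and genes with shared sequence.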

Additional observations from a re-analysis of the deposited data

Results flagged for a closer look

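Of the 38 transcripts tested, 3 had a lower IP/input ratio in the tet-LIN28B mice than in the control by the fit's own test of that difference. The log2 differences were -1.93 for Bop1, -1.68 for Nop10 and -1.34 for Polr1e, and each was lower than the control in 2 of 2 tet-LIN28B mice. Over all genes tested, 10.6% were called lower in the same comparison. The control IP/input ratio itself was 0.983 for Bop1, 0.673 for Nop10 and 0.817 for Polr1e.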

How the results depend on the processing

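The number of transcripts called lower than the control was 3, and it was 0 with a pseudocount of 0.1, with the minimum mean input lowered to 1 FPKM, with no filter beyond inputs above 0 and with no trend in the prior variance, and 1 after centring and 1 under the methods' filter. It was 4 with a pseudocount of 5 and 4 with every library scaled to the same sum, where Nip7 was added (adjusted p = 0.048 and 0.0448). Without the replicate block the calls lower than the control were 0 as well, against 3 with the mouse paired. The number called higher than the control was 0, and it was 2 with a pseudocount of 5, 2 after centring (Fbl and Naf1 in both) and 4 under the methods' filter. Under that filter, which keeps 16 of the transcripts, 7 were called higher and 1 lower against the input, 4 averaged above 2 and 1 below 0.5, and the medians were 0.18 for log2 IP/input and 0.30 for the difference from the control. Centring gave 12 averages above 2 and medians of 0.46 and 0.42. Scaling every library to the same sum gave medians of 0.25 and -0.066. The median log2 IP/input was 0.14 with a pseudocount of 5 and 0.10 when summed over genes sharing a 50-base stretch, where Wdr12 was at -0.53; since Wdr12 made up 0.728% of its sum, that value is set by other genes. With 1 tet-LIN28B mouse left out, values without a test, the median log2 IP/input was 0.16 to 0.17, the median difference from the control 0.10 to 0.11, and the transcripts averaging above 2 were 5 to 6. The causes of these shifts were not tested, except that the methods' filter leaves fewer transcripts. No input difference was called in any alternative. Since depth is unknown, low transcripts such as Naf1, Nle1 and Polr1b carry an unknown counting error.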
